A study of Mus musculus with 3 samples.

Results

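The cytosolic ribosomal protein genes encode the proteins of the ribosome that translates mRNA in the cytosol. Their levels were examined in the mouse hepatoma line Hepa1c1c7 after transfection with empty vector (pCMV6-Kan/Neo), with a Mst1r vector that encodes a receptor tyrosine kinase, or with a Slpi vector that encodes a secreted protease inhibitor. Every culture received 2 µg of vector and was kept for 24 h, so transfection and a plasmid were common to the 3 groups. Each group was 1 sample on 1 single-colour Agilent array, so the groups cannot be tested against each other and the values below have no replicates. Members were the genes with a mouse symbol of Rpl or Rps, a number and an optional a, l or x ending, together with Rplp0, Rplp1, Rplp2 and Rpsa, each represented by its brightest probe. The reference table held 83 such symbols, and 82 of them, 50 of the large and 32 of the small subunit, were found among the 45616 features of the array, of which 22908 had a gene symbol. A mean processed signal (background-subtracted spot intensity) over 50 was reached by 78 members and by 16954 features in all.

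The cytosolic ribosome consists of a large subunit, which joins amino acids, and a small subunit, which reads the mRNA. Ribosomal protein mRNAs are among the most abundant of growing cells. Most of them begin with a terminal oligopyrimidine (TOP) tract, a C at the first base followed by a run of pyrimidines. Through this tract mTOR signalling controls their translation. Proteins without a ribosome to join are generally degraded, and the genes are known to be expressed in close proportion to each other although they lie on many chromosomes. The detected members were spread over 19 chromosomes, and 4 of them (Rpl10, Rpl36a, Rpl39 and Rps4x) lay on the X chromosome.

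Start sites of some members are shown as examples of the TOP tract, and they were chosen because they carry one at the annotated start. Each line gives 10 bases before and 20 bases from the annotated start (RefSeq, GRCm38.p6), read on the strand of the gene, and capitals mark the pyrimidine run that begins at the start.
Rplp2, chr7:141447641-141447670, plus strand: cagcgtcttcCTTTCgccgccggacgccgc
Rpl14, chr9:120571507-120571536, plus strand: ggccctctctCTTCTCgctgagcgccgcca
Rpl28, chr7:4792955-4792984, plus strand: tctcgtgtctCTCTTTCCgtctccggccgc
Rpl35, chr2:39005112-39005141, minus strand: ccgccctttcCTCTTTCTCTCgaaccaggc
Rpl38, chr11:114668570-114668599, plus strand: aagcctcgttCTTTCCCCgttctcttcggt
Rps6, chr4:86857348-86857377, minus strand: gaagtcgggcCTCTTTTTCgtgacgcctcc
Rps10, chr17:27635225-27635254, minus strand: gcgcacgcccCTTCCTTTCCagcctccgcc
Rps18, chr17:33955646-33955675, minus strand: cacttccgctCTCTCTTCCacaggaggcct
Rps27, chr3:90213629-90213658, minus strand: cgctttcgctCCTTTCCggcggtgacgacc
The table of start windows matched 58 of the 78 detected members. A C at the annotated start with at least 4 pyrimidines after it was found for 14 of the 58 genes (24.1%), against 3.01% of the 27025 genes of the whole table and 0 of 69 mitochondrial ribosomal protein genes. A pyrimidine run of at least 8 bases that began with C within 10 bases of the start was found for 41.4% of the members and 9.43% of all genes. Within the 300 bases of a window, 250 before and 50 from the start, the letters CCGGAA stood on either strand in 55.2% of the members, in 58.0% of the mitochondrial ribosomal protein genes and in 16.7% of all genes. These are matches of letters to annotated starts, and no start site was measured here.

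The arrays were close to each other in depth of signal. Between 46.7% and 48.5% of the 56605 probes were well above background, their 75th percentiles of processed signal lay between 229 and 268, and no spot was saturated. Of 10 hepatocyte markers, 4 were well above background on all arrays, while Apob and Hnf4a, a structural lipoprotein and a defining transcription factor of hepatocytes, were so on none. Among the leukocyte markers, Cd3e was well above background on all arrays (520, 521 and 576 with empty, Mst1r and Slpi vector), while Ptprc and Adgre1 were so on none. The summed signal of the hepatocyte markers, not scaled between arrays, was 76165, 61429 and 73991, most of it from Trf (48573, 35784 and 47485). After the arrays were scaled to their 75th percentiles, Alb, Afp, Apoa2 and Trf differed from empty vector by 0.57, 0.0010, -0.030 and -0.21 (log2) with Mst1r vector. The unscaled sum of 4 cholangiocyte markers, nearly all from Krt7, was 13822, 8630 and 13773. After scaling, Krt7 differed by -0.50 and Sox9 by 0.37 with Mst1r vector. Of 5 fibroblast or stellate markers, 4 were well above background on all arrays. Des gave 227, 37.9 and 58.2 with empty, Mst1r and Slpi vector, or -2.4 and -1.9 after scaling. Col1a1, Col3a1 and Pdgfrb differed by 0.27, 0.42 and 0.068 with Mst1r vector and by -0.11, -0.49 and 0.068 with Slpi vector. The part of these markers in the results below was not tested. The single probe of Mst1r also stayed at background on all 3 arrays, and Slpi differed from empty vector by 0.13 (log2) on the Slpi vector array, so the arrays are named here by their labels. The paper reports Mst1r overexpression by real-time PCR in Hepa1c1c7 cells given the Mst1r vector, which was not examined here.

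Ribosomal protein mRNAs gave some of the brightest probes of all 3 arrays. The 82 members were 0.180% of the features and made up 6.96%, 7.09% and 7.0% of the summed signal with empty, Mst1r and Slpi vector. Of the 78 detected members, 77 had a mean log2 signal above 14, a level that 1212 features reached. Among these 77, the processed signal ran from 24209 to 206064 with empty vector, from 19962 to 190770 with Mst1r vector and from 22699 to 197002 with Slpi vector. The signal of a probe also depends on its sequence, so these values order probes and not mRNA amounts. By the mean over arrays, Rpl41, which encodes the smallest ribosomal protein, had the brightest probe at 206064, 190770 and 197002 with empty, Mst1r and Slpi vector. It was followed by Rpl35 at 146919, 132890 and 141586, and by Rps18 at 142847, 134145 and 139437. The exception was Rpl37, whose sole probe gave 86.0, 67.7 and 83.1. That level concerns this probe, and no second probe was there to compare.

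**Figure D1:**
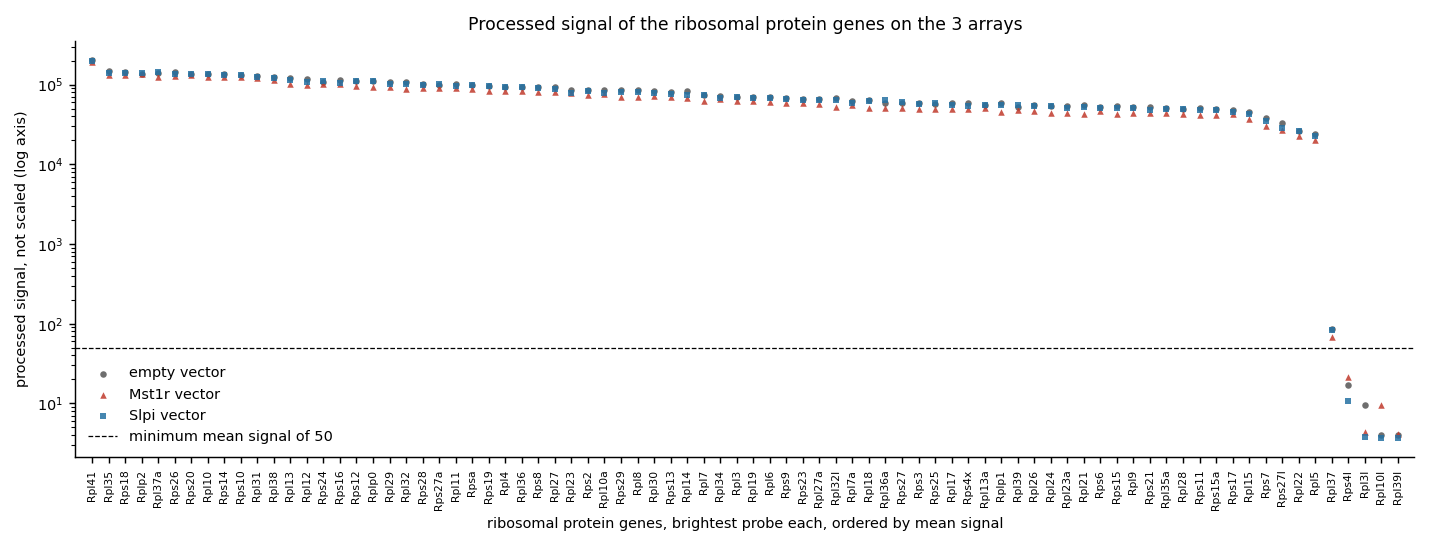
Processed signal (log axis, not scaled between arrays) of 80 ribosomal protein genes on the empty vector, Mst1r vector and Slpi vector arrays, 1 point per gene and array, ordered by mean signal. Rpl41 leads at 206064 with empty vector, 75 genes lie at 19962 or above on every array, Rpl37 lies just over the dashed minimum of 50, and Rps4l, Rpl3l, Rpl10l and Rpl39l lie below it.

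The remaining 4 members were on none of the arrays well above background, and no fold is given for them. Rpl3l, the muscle paralog of Rpl3, gave 9.68, 4.33 and 3.78 with empty, Mst1r and Slpi vector. Rpl10l, a testis paralog of Rpl10, gave 4.06, 9.64 and 3.67. Rpl39l, a testis paralog of Rpl39, gave 4.07, 4.16 and 3.71. Rps4l, annotated as a transcribed pseudogene, gave 17.2, 21.5 and 10.8. The highest of these signals was 21.5, against 19962 for the dimmest of the 77 bright members.

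To compare arrays, the log2 signal was scaled to the 75th percentile of each array. With Mst1r vector, no detected ribosomal protein gene was 1.2-fold higher or lower than with empty vector. Past that fold were 26.2% of all features (13.1% higher and 13.1% lower) and 9.08% of the 1212 bright features (mean log2 signal above 14). The bright features include 77 members, and the others were dimmer, with a median signal of 34160 against 72588 for the members. Over the 78 members the log2 difference had a median of 0.026 and ran from -0.15 for Rplp1 to 0.23 for Rplp2, or from 0.904-fold to 1.17-fold. The difference was above 0 for 51 members and below 0 for 27 (34.6%), against 57.8% below 0 over all features, whose median was -0.037. The SD over members was 0.077, against 0.64 over all features and 0.19 over the other 1135 bright features. An SD can be raised by a few extreme features, and the other bright features reached 2.50 (Sprr2b). The distance between the lower and upper quartiles was 0.098 for the members, 0.270 for all features and 0.130 for the other bright features. That distance was 0.115 for the 45 members on 1 spot, while the remaining 33 members were averages over 10 spots. The sign of the members' median depended on the processing. It turned to -0.076 when arrays were scaled to spike-in controls, to -0.20 without scaling, where 17 members were past 1.2-fold downward, to -0.016 after quantile normalization, to -0.0054 after normexp background correction and to -0.019 with the second brightest probes. The number of members below 0 was 67, 78, 48 and 42 under the first 4 of these settings. The distance of the members' median from that of all features, 0.062, is the same under every scaling by a constant, but it was 0.030 after normexp background correction, 0.0033 after quantile normalization and -0.15 without the signal minimum.

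With Slpi vector, again no detected member was 1.2-fold higher or lower than with empty vector. The share among all features was 10.3%, and among the bright features it was 0.825%. The median log2 difference was 0.023, with 55 members above 0 and 23 below, and the range was from -0.10 for Rps27l to 0.19 for Rpl36a, or from 0.931-fold to 1.14-fold. All features had a median of 0.0034 and 49.0% of them lay below 0. Bright features other than members had a median of 0.026, close to that of the members. The SD over members was 0.055. Spike-in scaling moved the members' median to -0.21 and median scaling moved it to 0.19, with 11 members past 1.2-fold downward and 10 upward, and both moved all features alike.

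Compared directly, Mst1r vector and Slpi vector differed by less than 1.2-fold for all 78 detected members, while 28.9% of all features and 8.66% of the bright ones were past that fold. The median was -0.0066 and the SD 0.072, with 36 members above 0 and 42 below, and 55.6% of all features were below 0. The differences ran from -0.17 for Rpl36a to 0.15. No member was past 2-fold in any of the 3 comparisons, a fold that 4.03%, 2.58% and 3.69% of all features passed. The comparisons share arrays, so they do not repeat each other independently.

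**Figure D2:**
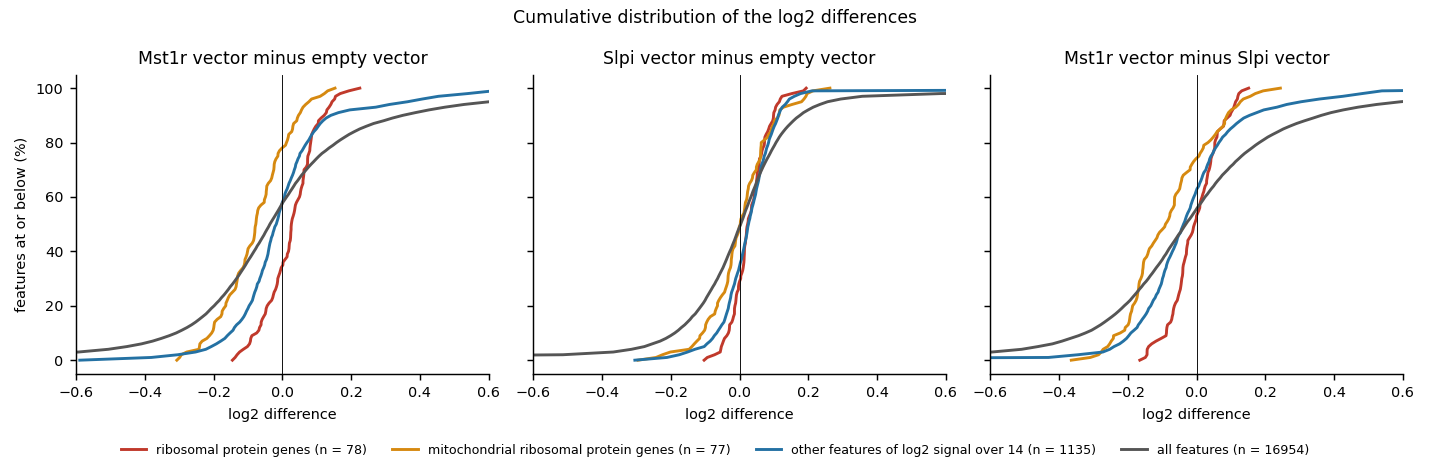
Cumulative share (%) of features at or below each log2 difference after 75th percentile scaling, for 78 ribosomal protein genes, 77 mitochondrial ribosomal protein genes, 1135 other features of log2 signal over 14 and all 16954 features, in each comparison. The curve of the ribosomal protein genes is the steepest in each panel, between -0.15 and 0.23 with Mst1r vector, between -0.10 and 0.19 with Slpi vector and between -0.17 and 0.15 in the direct comparison. The axis ends at 0.6 on either side and some features lie beyond it.

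How much of the spread among members exceeded the error of a spot was examined with the repeated probes. The array carries 300 probes on 10 spots each, and 59 of them belong to ribosomal protein genes. In the brightest range the SD between spots of 1 probe on 1 array was 0.056, which gives a difference between arrays an error of 0.080 for a probe on 1 spot and of 0.025 for a probe on 10 spots. This error covers no variation between cultures or labelling reactions. The 45 members on 1 spot had an SD of 0.082 for Mst1r vector and 0.064 for Slpi vector, near or under that error. The 33 members on 10 spots had an SD of 0.062 and 0.039, above their error of 0.025. With Mst1r vector 11 of these 33 lay more than 2 spot errors from their own median, and with Slpi vector 6 did. Of all 78 detected members 13 and 8 lay as far from the median of their set. Among all 16954 features the numbers were 3722 and 1323, and among the 1212 bright features 296 and 113. The subunits were alike, with medians of 0.024 (47 large subunit genes) and 0.035 (31 small subunit genes) with Mst1r vector and of 0.025 and 0.022 with Slpi vector.

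**Figure D3:**
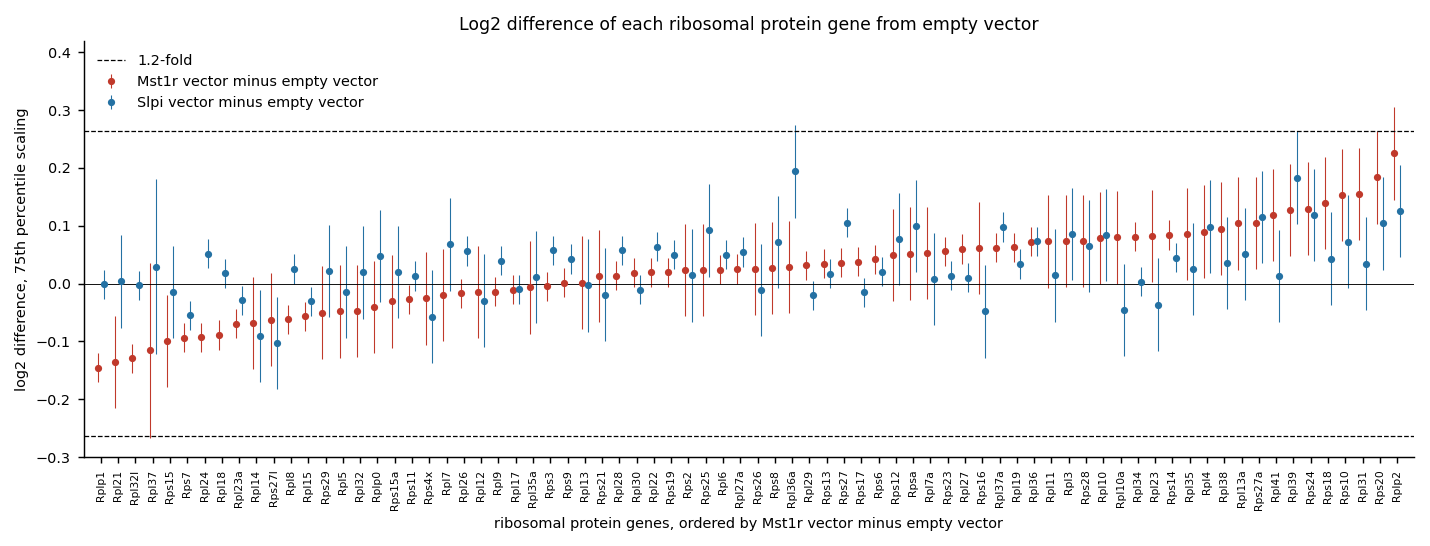
Log2 difference of 76 detected ribosomal protein genes from empty vector for both other vectors, ordered by that of Mst1r vector. Bars are the SD that repeated spots give for the difference (1 array per group) and dashed lines mark 1.2-fold. All points lie within the dashed lines, from -0.15 for Rplp1 to 0.23 for Rplp2 with Mst1r vector.

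The genes of the P-stalk, the flexible arm of the large subunit that recruits elongation factors, were at both ends of the order with Mst1r vector. The processed signal of Rplp1 was 59424, 45798 and 56241 with empty, Mst1r and Slpi vector, a log2 difference of -0.15 ± 0.025 (spot error, 10 spots) for Mst1r vector and of -0.0012 for Slpi vector. Its second probe gave -0.12 ± 0.080 with Mst1r vector, and thus both Rplp1 probes were lower there than with empty vector. Rplp2, whose protein pairs with that of Rplp1, gave 136895, 136415 and 141459, a difference of 0.23 ± 0.080 for Mst1r vector and 0.13 ± 0.080 for Slpi vector. The Rplp2 value rests on 1 spot. Rplp0, which anchors the stalk, gave 112088, 92906 and 109710, a difference of -0.041 for Mst1r vector and 0.047 for Slpi vector, both within the spot error.

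Among the other large subunit genes, Rpl21, Rpl32l, Rpl37 and Rpl24 had the lowest differences with Mst1r vector. Rpl32l gave 67532, 52642 and 63826 with empty, Mst1r and Slpi vector over 10 spots, or -0.13 ± 0.025 for Mst1r vector and -0.0032 for Slpi vector. Rpl24 gave 54434, 43512 and 53432, or -0.093 ± 0.025 and 0.051. Its second probe gave -0.090 and 0.052, close to the first on both arrays. Rpl21 gave 54924, 42629 and 52157 on 1 spot, or -0.14 ± 0.080 and 0.0037. The dim Rpl37 probe differed by -0.12 with Mst1r vector, within its spot error of 0.15.

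The highest large subunit genes after Rplp2 with Mst1r vector were Rpl31, Rpl39, Rpl41 and Rpl13a, at 0.16, 0.13, 0.12 and 0.10, each on 1 spot. Rpl31 gave 129206, 122645 and 125358 with empty, Mst1r and Slpi vector. Its dimmer probe on 10 spots gave -0.018 ± 0.025 with Mst1r vector, so the value of 0.16 was not seen on both probes. With Slpi vector the highest were Rpl36a at 0.19, Rpl39 at 0.18, Rplp2, Rpl4 at 0.099 and Rpl37a at 0.098. Rpl36a, on the X chromosome, gave 58480, 50850 and 63362, and was highest on the Slpi vector array. Its other probes differed by 0.085 and 0.094 with Slpi vector, above 0 on all 3 probes under this scaling. With Mst1r vector the Rpl36a probes gave 0.028, -0.12 and -0.14. Among the lowest large subunit genes with Slpi vector were Rpl14 at -0.091, Rpl10a at -0.045, Rpl23 at -0.036 and Rpl15 at -0.031.

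In the small subunit, Rps15 (-0.10), Rps7 (-0.093), Rps27l (-0.062), Rps29 (-0.050) and Rps15a (-0.031) had the lowest log2 differences with Mst1r vector. Rps7 gave 38139, 30475 and 34781 with empty, Mst1r and Slpi vector over 10 spots, or -0.093 ± 0.025 and -0.055 ± 0.025, more than 2 spot errors below 0 with both vectors under this scaling. Among the highest were Rps20 (0.18), Rps10 (0.15), Rps18 (0.14) and Rps24 (0.13), all on 1 spot. Rps20, a protein of the small subunit head, gave 135413, 131111 and 137873. Rps10 gave 130898, 124051 and 130392, and its dimmer probe on 10 spots gave 0.025.

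With Slpi vector the highest small subunit genes were Rps24 (0.12), Rps27a (0.12), Rps27 (0.11), Rps20 (0.10) and Rpsa (0.099). Rps27 was measured on 10 spots, at 58832, 51428 and 59951 with empty, Mst1r and Slpi vector. Its difference with Slpi vector was 0.11 ± 0.025, and that of its second probe, also on 10 spots, was 0.024. Rps27a, which encodes ubiquitin fused to a ribosomal protein, gave 98611, 90416 and 101181. Rpsa, the laminin receptor, gave 98543, 87079 and 99999, or 0.052 with Mst1r vector. The lowest were Rps27l, Rps4x (-0.057), Rps7 (-0.055), Rps16 (-0.048) and Rps21 (-0.019). Rps6, the substrate of the S6 kinases, gave 52588, 46165 and 50528 over 10 spots, a difference of 0.042 ± 0.025 for Mst1r vector and 0.021 for Slpi vector.

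Probes of the same gene did not always give the same sign. Of the 43 members with at least 2 detected probes, 6 had probes of opposite sign past their spot errors with Mst1r vector (Rpl29, Rpl36, Rpl39, Rpl41, Rps18 and Rps27) and 2 with Slpi vector (Rpl36 and Rpl39). The widest gap was that of Rpl36, whose probes, each on 10 spots, gave 0.073 and -0.32 with Mst1r vector. Among the second brightest probes with Mst1r vector, no other reached 1.2-fold. Among the third probes, that of Rps24 (7937, 8244 and 7660 with empty, Mst1r and Slpi vector) gave 0.28 ± 0.14, past 1.2-fold, and that of Rpl30 gave -0.26 ± 0.13 (0.834-fold), just short of it. The 5 probes of Rpl39 ran from -0.13 to 0.13. Over the 43 genes the brightest probe had a median of 0.027 with Mst1r vector and the second brightest -0.019, and the brightest was the higher in 31 of 43. With Slpi vector the medians were 0.021 and 0.00999, and the brightest was the higher in 26 of 43.

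The log2 difference moved with the brightness of the probe. Across the 77 bright members, Pearson's r between the difference and the log2 mean signal was 0.60 (Spearman's rho 0.63) for Mst1r vector and 0.21 (0.24) for Slpi vector. These points are genes of the same pair of arrays, not replicates, and the values are a description. The 39 brighter members had a median of 0.062 and the 38 dimmer ones of -0.0056 with Mst1r vector. Among the other 1135 bright features r was 0.23 for Mst1r vector and 0.044 for Slpi vector. The part of brightness in the order of the members was not tested.

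**Figure D4:**
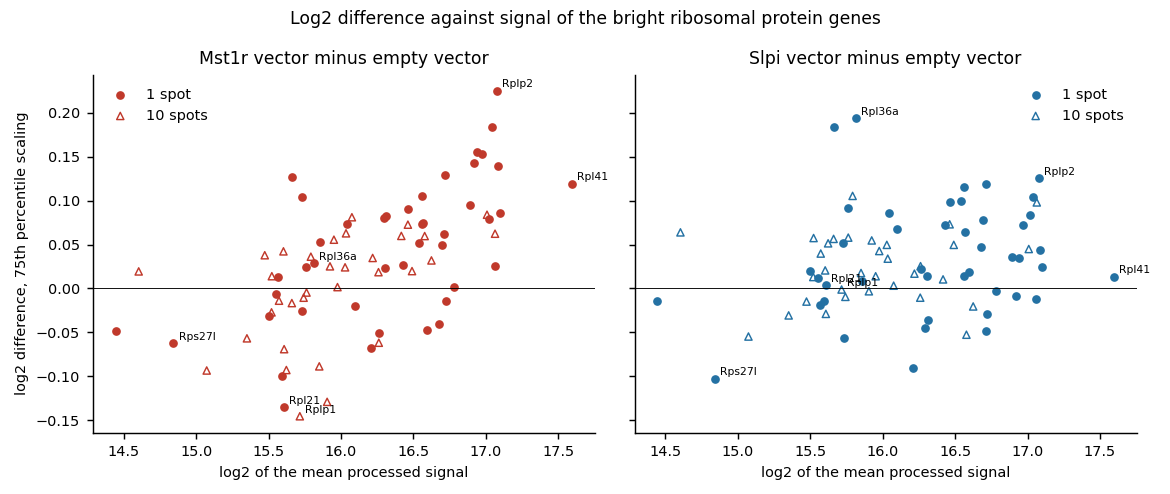
Log2 difference from empty vector (75th percentile scaling) against the log2 mean processed signal of the 77 bright ribosomal protein genes, with Mst1r vector on the left and Slpi vector on the right. Filled circles are probes on 1 spot and open triangles probes on 10 spots. The points climb with signal on the left (r = 0.60) and less so on the right (r = 0.21).

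Members with and without a TOP tract at the annotated start had close medians. With Mst1r vector the median difference was 0.025 for the 14 genes with the tract and 0.027 for the 44 without. With Slpi vector it was 0.023 and 0.034, and between Mst1r and Slpi vector 0.022 and -0.0066. Genes without a tract at the annotated start may still begin with one, so this split cannot separate TOP mRNAs from others. Rplp2, Rps10 and Rps18, whose starts are printed above, lay at 0.14 or higher with Mst1r vector, while Rpl14 lay at -0.068, Rpl28 at 0.014 and Rps6 at 0.042. The values of Rplp2, Rps10 and Rps18 rest on 1 spot each. Dimmer probes on 10 spots gave 0.025 for Rps10 and -0.033 and -0.043 for Rps18. The 14 genes with the tract ran from -0.13 to 0.23 with Mst1r vector.

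Paralogs were set beside their relatives, with the limit that labelled RNA of near-identical copies may bind the same probe. Rps27l, a p53-responsive paralog of Rps27, gave 32656, 26663 and 28798 with empty, Mst1r and Slpi vector. Its difference was -0.062 ± 0.080 for Mst1r vector and -0.10 ± 0.080 for Slpi vector, opposite in sign to the brightest probe of Rps27. The second Rps27l probe gave -0.11 ± 0.11 and -0.0029 ± 0.080, and the second Rps27 probe gave -0.078 ± 0.025 and 0.024 ± 0.025. Rpl22l1, the paralog of Rpl22, gave 20285, 17680 and 19870, a difference of 0.032 with Mst1r vector beside 0.019 for Rpl22. Rpl36al, the autosomal copy of Rpl36a, gave 28520, 23325 and 27404, or -0.060 and 0.021. Rpl32l and Rpl32 differed from empty vector by -0.13 and -0.047 with Mst1r vector.

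Of the 7 detected ribosomal protein genes that the symbol rule leaves out, 1 (Rpl7l1) passed 1.2-fold downward with Mst1r vector. This fold was passed downward by 13.1% of all features. With Slpi vector none passed 1.2-fold, against 10.3% of all features. Rpl7l1, a relative of Rpl7 that acts in ribosome assembly, gave 1260, 854 and 1207 with empty, Mst1r and Slpi vector, a difference of -0.33 ± 0.14 (0.794-fold) for Mst1r vector and 0.015 for Slpi vector, on 1 spot and 1 probe. Its signal was far below that of Rpl7, which gave 74312, 62477 and 73775 and differed by -0.020. Rack1, a scaffold on the small subunit head, differed by 0.16 ± 0.080 for Mst1r vector and 0.070 for Slpi vector. Fau, which encodes a ribosomal protein fused to a ubiquitin-like protein, differed by 0.026 with Mst1r vector, and Rps3a1 by 0.089. With Slpi vector Rack1, Fau, Rps3a1, Rpl22l1 and Rpl36al lay between 0.0090 and 0.070.

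The proteins of the mitochondrial ribosome, which are encoded in the nucleus by genes of their own, lay lower than the cytosolic ones with Mst1r vector. Of 77 detected genes, 60 (77.9%) lay below 0 with a median of -0.078, against 57.8% of all features. Of these 77, 3 passed 1.2-fold downward and none upward, a fold that 13.1% of all features passed in each direction. The cytosolic members had 27 of 78 below 0. With Slpi vector the mitochondrial median was 0.0022, with 38 of 77 (49.4%) below 0, against 49.0% of all features. Mrpl53, of the mitochondrial large subunit, had the largest difference with Mst1r vector and gave 5001, 3446 and 4374 with empty, Mst1r and Slpi vector, or -0.31 ± 0.13. Mrpl32 had the largest with Slpi vector at 3448, 2632 and 2661, or -0.30 ± 0.12. The mitochondrial genes were dimmer, with a median signal of 5509 against 72588 for the cytosolic ones. The distance of their median from that of all features was -0.041 with Mst1r vector and -0.016 after quantile normalization. The part of brightness in these differences was not tested.

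Other genes of protein synthesis were examined as lists. The 21 detected genes of the list of other TOP mRNAs encode elongation factors, initiation factors and other proteins, and in part belong to the next lists too. Their median was 0.024 with Mst1r vector, with 7 (33.3%) below 0 against 57.8% of all features. None was past 1.2-fold, against 26.2% of all features and 9.08% of the bright ones, and their median signal was 46376. With Slpi vector their median was 0.012, and Naca, a subunit of the nascent polypeptide-associated complex, gave 53109, 43684 and 42995 with empty, Mst1r and Slpi vector, or -0.23 ± 0.080. The 35 initiation factors had medians of -0.011 for Mst1r vector and -0.028 for Slpi vector, and 1 of them passed 1.2-fold in each, where 26.2% and 10.3% of all features did. Eif4a2, an mRNA helicase, was higher, at 0.28 ± 0.12 with Mst1r vector, and Eif5b, which joins the subunits, was lower, at -0.34 ± 0.15 with Slpi vector. Among 10 detected elongation factors and regulators, Eef2k, the kinase that inhibits Eef2, was the only one past 1.2-fold with Mst1r vector, at -0.30 ± 0.15, where 26.2% of all features were.

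**Figure D5:**
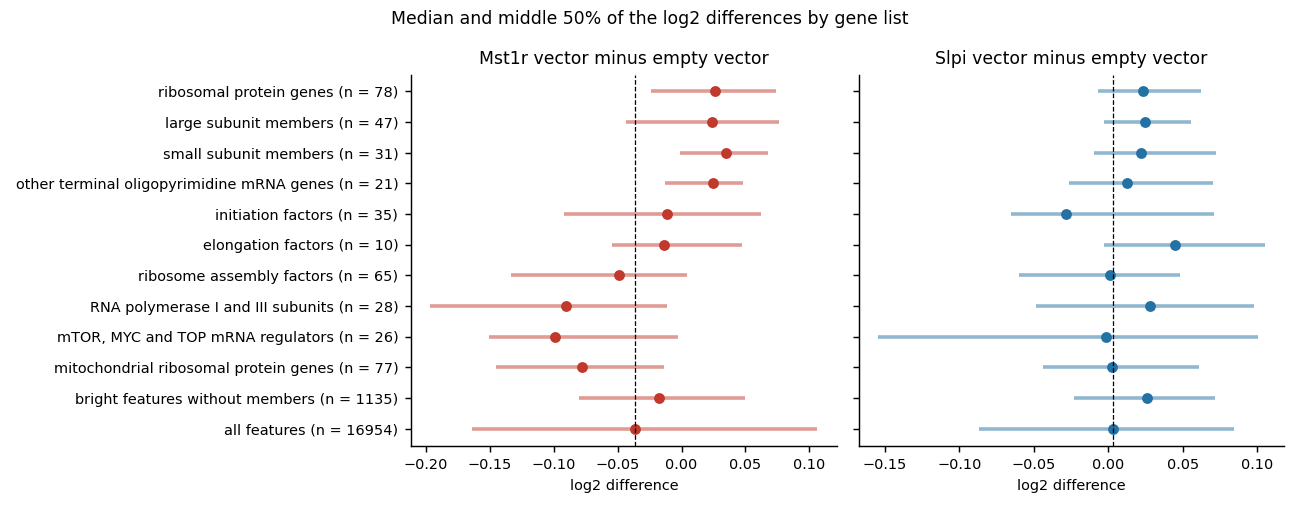
Median (point) and middle 50% (bar) of the log2 differences from empty vector for each gene list, with Mst1r vector on the left and Slpi vector on the right; the dashed line is the median of all 16954 features. With Mst1r vector the ribosomal protein genes (0.026) and other TOP mRNA genes (0.024) lie right of the line at -0.037, and the mitochondrial ribosomal protein genes (-0.078) lie left of it.

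Genes that build ribosomes were read against all features, of which 57.8% were below 0 with Mst1r vector at a median of -0.037. Of 65 detected assembly factors, 47 (72.3%) lay below 0 with a median of -0.049, and 1 passed 1.2-fold in each direction, where 13.1% of all features did. The lower one was Mdn1, the giant ATPase that releases factors from the large subunit, which gave 3018, 1636 and 2787 with empty, Mst1r and Slpi vector, or -0.65 ± 0.12. Its probe lies in row 31 of 384, among the upper rows of the array. The brightest probes of several ribosomal protein genes lie there too, among them Rps20 and Rps18 (row 2), Rpl39 (row 24) and Rpl14 (row 34). With Slpi vector the list had a median of 0.0014, and Nol6, a nucleolar factor of small subunit processing, gave 1930, 1450 and 1473, or -0.31 ± 0.12. Of 28 subunits and factors of RNA polymerases I and III, 21 lay below 0 with Mst1r vector (median -0.090), 1 was past 1.2-fold higher and 2 lower, against the same 13.1% of all features in each direction. Taf1d, a subunit of the polymerase I selectivity factor, was higher at 1287, 1702 and 1298, or 0.63 ± 0.12. With Slpi vector the median was 0.028 and none passed 1.2-fold, and Taf1c had the largest difference at 0.25 ± 0.16.

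Regulators of ribosomal protein synthesis were dimmer (median signal 1860) than the ribosomal protein genes, and their SD with Mst1r vector was 0.19. Of 33 genes of mTOR, MYC and TOP mRNA control, 26 were detected. With Mst1r vector 19 lay below 0 (median -0.099), and 1.2-fold was passed upward by 2 and downward by 4, against 57.8% of all features below 0 and 13.1% past 1.2-fold in each direction. With Slpi vector 13 lay on each side of 0 (median -0.0013), and 1.2-fold was passed upward by none and downward by 3, against 4.73% and 5.61% of all features. The largest difference with Mst1r vector was that of Rps6ka3, a kinase of the RSK family, at 355, 405 and 386 with empty, Mst1r and Slpi vector, or 0.42 ± 0.16, and its second probe gave -0.0026. The largest with Slpi vector was that of Mxd1, a MYC antagonist, at 81.5, 52.7 and 44.3, or -0.80 ± 0.29. The Mxd1 probe lies in row 32, and the second probe gave 0.22 with Slpi vector.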

How the data were processed

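Labelled RNA from 3 transfected cultures (100 ng each) was read on Agilent SurePrint G3 Mouse arrays. The deposited files hold spot intensities that the authors obtained with Feature Extraction 12.0.3.1 per the file headers: the processed signal, background-subtracted and spatially detrended, and median spot and background intensities. The deposited series table holds intensity per probe without scaling. For 56605 non-control probes, unflagged spots were averaged as log2 processed signal, and the 75th percentile of the array was subtracted. Accessions were matched to RefSeq symbols (32994 probes), and the brightest probe by mean log2 signal represented each name. Features with a mean signal over 50 were compared. Folds of 1.2 and 2 served for counts, not as tests. Members, lists and the rule for genes given by value (extremes of each subunit and vector, the 3 brightest, dim members, discordant probes, P-stalk genes, Rpsa, paralogs and the largest difference of each list) were chosen with earlier results of these data known. Spot error was the SD between spots of probes printed 10 times, and the number of arrays limits the precision. Calculations used Python 3.11.15, pandas 2.3.3 and limma 3.58.1 in R 4.3.3, and were tested on simulated data. Alternatives changed scaling, background correction (normexp, offset 50, on median intensities), signal minimum, probe choice, array rows, source table and membership. A few genes that this rule selects are not reported here and are left out of the plots by gene.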

Additional observations from a re-analysis of the deposited data

How the results depend on the processing

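No paired analysis was possible because each group was 1 array, and no replicate could be left out. Under 13 other settings and 2 more chosen after seeing the data (without Rpl37 and Rpl32l, and members on 10 spots alone), the medians and the counts past 1.2-fold and 2-fold stayed within the spot error or within 1.5 times except as follows. The median was -0.076 with spike-in scaling and -0.20 without scaling for Mst1r vector, 0.19 with median scaling and -0.21 with spike-in scaling for Slpi vector, and -0.14, 0.13 and -0.16 with median, spike-in and no scaling in the direct comparison. These settings moved all features alike. In the same order the medians of all features were -0.14 and -0.27, 0.17 and -0.23, and -0.16, 0.10 and -0.18. The number of members below 0 with Slpi vector ran from 0 to 78. The spot error is that of single genes and wider than the main medians, so changes of sign within it are not exceptions here. For Mst1r vector the median turned to -0.016 with quantile normalization, -0.0054 with normexp correction and -0.019 with the second brightest probes. It turned to -0.055 without scaling for Slpi vector and to 0.032 with the 75th percentile of detected probes in the direct comparison. Members at least 1.2-fold higher numbered 3 with Mst1r vector without a signal minimum, 10 with Slpi vector under median scaling and 1 with the mean of all probes, and in the direct comparison 1 with spike-in scaling and 4 without a minimum. Members at least 1.2-fold lower with Mst1r vector numbered 17 without scaling and 1 each without a minimum, with the second brightest probe and with the genes outside the symbol rule. With Slpi vector they numbered 11 with spike-in scaling and 2 without a minimum, and in the direct comparison 5 with median scaling, 6 without scaling and 1 each with the mean of all probes and with the genes outside the symbol rule. Members at least 2-fold higher without a minimum numbered 1 with Mst1r vector and 2 in the direct comparison, and 1 was 2-fold lower with Slpi vector. With the mean of all probes 1 was 2-fold higher with Slpi vector, which was Rps15a, through a dim probe at 4.31 with empty vector and 41.2 with Slpi vector. Without a minimum the 4 dim members enter. The cause was not tested otherwise. Quantile normalization brought the distance of the members from all features to 0.0033 for Mst1r vector and 0.0034 for Slpi vector. The sign of Mxd1 turned with Mst1r vector to 0.071 with the mean of all probes and to 0.54 with the second probe. With Slpi vector it turned to 0.22 with the second probe. Leaving out the first 128 rows removes the brightest Mxd1 probe (row 32), so the 0.54 and 0.22 found there are the second probe again. Rps6ka3 turned to -0.0026 with its second probe.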
